A study of Mus musculus with 6 samples.

Results

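The 8 genes described here are *Hhex*, *Nkx6-1*, *Barx1*, *Pdx1*, *Cdx2*, *Hnf4a*, *Pax9* and *Onecut1*. They encode transcription factors that mark regions of the gut tube, and organs that arise along it, other than the lung. They were chosen by name, and each of the 8 had exactly 1 of the 24402 loci in the deposited table. The samples were whole lungs of C57BL/6 mouse embryos at 12.5 *dpc*, with 3 libraries from wild-type embryos (control) and 3 from Yap-flox/flox; Shh-Cre/+ littermates (*Yap* mutant). In the mutants, both copies of *Yap* are floxed and Cre is made from the *Shh* locus, so *Yap* is removed in the lung epithelium while the mesenchyme keeps it. The mutants also carry 1 *Shh* allele taken up by Cre and the controls carry no Cre, so effects of losing *Yap*, of Cre and of *Shh* dosage cannot be told apart in this comparison. The authors give 1 value per genotype for each locus, in FPKM (fragments scaled by transcript length and by library size), pooled over the libraries of that genotype. No spread between libraries and no depth can therefore be given, and a difference below is a difference between 2 pooled values, with no test.

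The gut tube is patterned along its length by transcription factors that each hold a region to its fate. NKX2-1 marks the lung and thyroid, HHEX and HNF4A the liver bud, PDX1 the pancreas and duodenum, CDX2 the intestine, BARX1 the stomach wall and PAX9 the pharynx and oesophagus. Loss of the factor of one region can let a neighbouring fate appear, which is why genes of neighbouring organs are of interest in a lung whose epithelium lacks a major regulator. Several of these genes also act outside the endoderm, as *Hhex* does in endothelial and blood precursors and *Nkx6-1* and *Onecut1* do in the nervous system.

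*Hhex*, *Nkx6-1* and *Barx1* were detected (at least 1 FPKM) in both control and *Yap* mutant lungs, and the other 5 genes were detected in neither. Detection in 3 of 8 is 37.5%, against 51.8% of all loci in control lungs and 52.4% in *Yap* mutant lungs. A locus was called changed when its larger value was at least 1 FPKM and it differed at least 2-fold on the log2(FPKM + 0.1) scale. By this rule, 0 of the 3 detected genes were higher and 0 were lower in *Yap* mutant lungs. The shares were 2.70% (higher) and 1.63% (lower) of the 13062 loci detected in either genotype. The other 5 genes could not be called under this rule, and 3 genes are too few to differ visibly from such shares. Below that rule, *Hhex* and *Nkx6-1* had a larger value in *Yap* mutant than in control lungs, and *Barx1* had a smaller one. The median log2 difference over all 13062 detected loci was -0.005. Centring on a list of lung epithelial genes, whose median was -0.49 on the log2 scale, adds 0.49 to every log2 difference by construction. It turns that of *Barx1* from -0.32 to 0.17. All 5 genes that stayed under 1 FPKM were on the higher side, where 56.9% of the 6314 loci under 1 FPKM in both genotypes and above 0 in at least 1 of them lay.

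**Figure D1:**
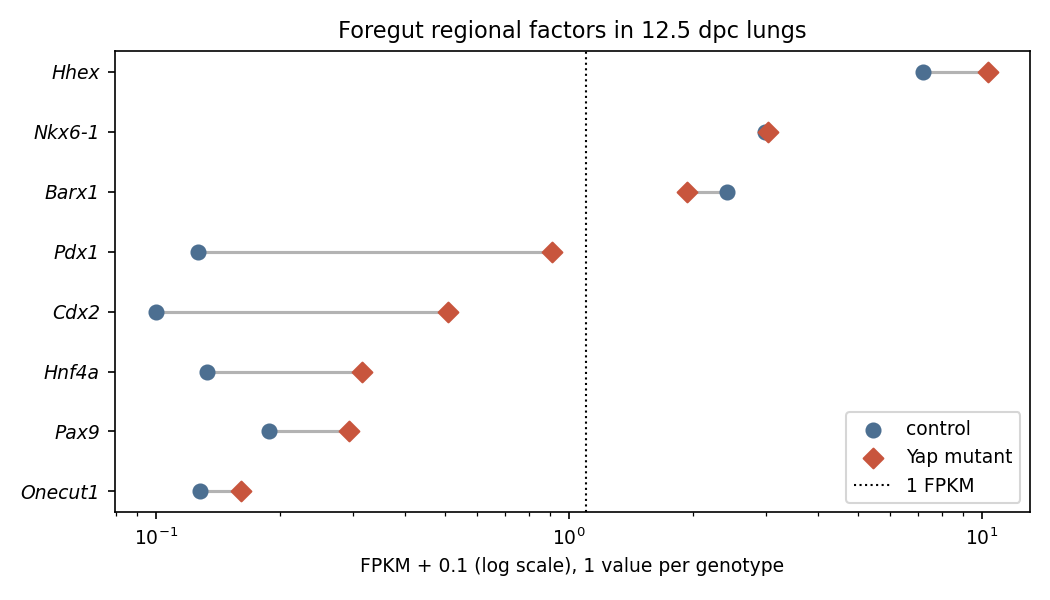
FPKM + 0.1 on a log scale for the 8 genes, with 1 pooled value for control (circles) and 1 for *Yap* mutant lungs (diamonds); the dotted line marks 1 FPKM. *Hhex*, *Nkx6-1* and *Barx1* lie right of the line in both genotypes, and *Pdx1* and *Cdx2* show the widest gaps, both left of it.

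*Hhex*, a homeobox gene needed for the liver and thyroid buds, was the most abundant of the 8. It lies on chromosome 19 (37434841 to 37440731 on mm10) and had 7.08 FPKM in control lungs and 10.3 FPKM in mutants. The ratio was 1.45 and the log2 difference 0.53, so *Hhex* fell short of a 1.5-fold change, which 5.25% of the detected loci reached upwards. Its level exceeded that of 65.4% of all loci in control and 70.4% in *Yap* mutant lungs. Taken relative to the lung epithelium list, a reference that raises every log2 difference alike, that of *Hhex* was 1.02, past the 2-fold rule. *Hhex* is also made by endothelial and blood precursors. In the endothelium list, 10 of 12 loci had a larger value in *Yap* mutant lungs and 2 a smaller one, 0 of 12 passed the 2-fold rule, the median log2 difference was 0.15, and the summed level was 261.0 FPKM in control lungs and 286.0 FPKM in mutants. The part of endothelial cells in the *Hhex* value was not tested. In whole-lung RNA, a change in the number of cells of a type and a change in RNA per cell cannot be told apart.

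*Nkx6-1*, a homeobox gene of pancreatic progenitors and beta cells, lies on chromosome 5 (101658056 to 101665335). It had 2.88 FPKM in control lungs and 2.94 FPKM in mutants, a ratio of 1.02 and a log2 difference of 0.03. This was the smallest difference of the 8 genes. *Nkx6-1* also marks progenitors in the ventral neural tube. In the neuron list, 0 of 9 detected loci passed the 2-fold rule. Below it, 8 of the 9 had a smaller value in *Yap* mutant lungs and 1 a larger one, with a median log2 difference of -0.61, and the summed level went from 34.8 to 27.2 FPKM. The part of neural cells in the *Nkx6-1* value was not tested.

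*Barx1*, a homeobox gene of the stomach mesenchyme, lies on chromosome 13 (48663036 to 48666507). Its values were 2.31 FPKM in control lungs and 1.83 FPKM in mutants, a ratio of 0.791 and a log2 difference of -0.32. It was the 1 gene of the 8 with the smaller value in *Yap* mutant lungs. Relative to the lung epithelium list, a reference that adds 0.49 to every log2 difference, that of *Barx1* was 0.17. Centred on the median of all detected loci it was -0.32, so the sign changed with the first reference and not with the second. BARX1 is known to act in the stomach through secreted Wnt antagonists of the SFRP family. Among genes of that family, *Sfrp1* had 43.2 FPKM in control lungs and 60.9 FPKM in mutants. *Sfrp2* had 90.4 and 108.2 FPKM, and *Sfrp5* had 0.331 and 1.14 FPKM. Whether any of them depends on *Barx1* in the lung was not tested. Only *Sfrp5* of these 3 passed the 2-fold rule.

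**Figure D2:**
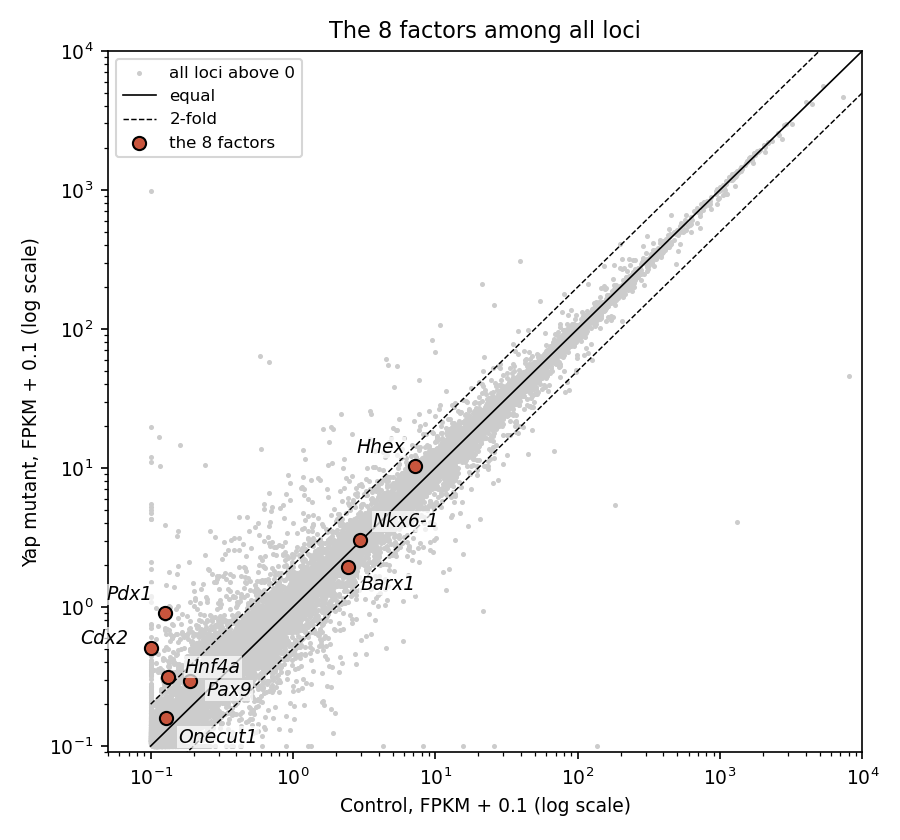
Control (x axis) against *Yap* mutant (y axis) FPKM + 0.1, both on log scales, for all loci above 0 (grey) and the 8 genes (red); the solid line is equality and the dashed lines are 2-fold. *Hhex*, *Nkx6-1* and *Barx1* lie between the dashed lines. *Pdx1*, *Cdx2* and *Hnf4a* lie above the upper one at values under 1 FPKM, where the 0.1 added weighs on the position.

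*Pdx1*, which sets up the pancreas, the duodenum and the end of the stomach, stood at 0.0266 FPKM in control lungs and 0.809 FPKM in mutants. *Cdx2*, the regulator of intestinal identity, was listed at 0 in control and at 0.410 FPKM in *Yap* mutant lungs. Both genes were under 1 FPKM throughout, at a depth that is not known. On the log2(FPKM + 0.1) scale their differences were 2.84 and 2.35. With a pseudocount of 1 FPKM these shrank to 0.82 and 0.50, and with 0.01 FPKM they grew to 4.48 and 5.39, so their size is set by the pseudocount. A log2 difference of at least 1 upwards, on the scale with 0.1 FPKM added, was seen in 5.50% of the 6314 loci of the same low range. *Hnf4a*, *Pdx1* and *Cdx2* had such a difference. A locus can reach it only with at least 0.1 FPKM in *Yap* mutant lungs. Loci below that count among the 6314 but cannot pass, so the share is not a rate for loci as high as these genes.

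*Pdx1* and *Cdx2* are neighbours. Their genes lie 25.0 kb apart on chromosome 5 in the ParaHox cluster, a sister of the Hox clusters. The interval listed for *Pdx1* (147228598 to 147275935) also holds the antisense gene *Plut*, which has a row of its own under an older symbol and was listed at 0 in control and at 0.270 FPKM in *Yap* mutant lungs. The libraries were made with a kit that keeps strand, but the setting used for counting is not given in the sources used here, so reads of *Pdx1* and of *Plut* may not be fully separated. *Cdx2* occupies 147300900 to 147307249. The bases before the start of each gene are shown because these 2 genes of one cluster had the widest differences of the 8. They come from RefSeq on GRCm38.p6, end where the GENCODE M21 gene begins, and read 5′ to 3′ on the gene's own strand. Capitals mark the motifs found.
*Pdx1*, chr5:147269847-147269958, plus strand: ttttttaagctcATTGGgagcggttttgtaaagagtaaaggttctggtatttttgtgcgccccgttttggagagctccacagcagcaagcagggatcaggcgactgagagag
*Cdx2*, chr5:147307271-147307499, minus strand: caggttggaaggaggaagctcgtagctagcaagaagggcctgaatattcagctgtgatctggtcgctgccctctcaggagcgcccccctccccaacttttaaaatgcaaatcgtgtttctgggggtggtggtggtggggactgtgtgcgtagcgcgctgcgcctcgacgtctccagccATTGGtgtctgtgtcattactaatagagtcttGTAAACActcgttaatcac

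The motifs searched on both strands were GGAATG (bound by TEAD factors, the DNA-binding partners of YAP), TATAAA (the TATA box), CCAAT (the CCAAT box), TGTTTAC (bound by FOXA factors) and AGATAA (bound by GATA factors). None of these words contains another. The search covered the 250 bases before each RefSeq start, which gave 9 windows for the 8 genes because *Hnf4a* has 2 starts 40.3 kb apart. In *Pdx1*, CCAAT began 238 and 74 bases before the RefSeq start, and the second lies past the stretch shown. In *Cdx2*, a CCAAT box and a FOXA word began 72 and 40 bases before the RefSeq start. In both genes the RefSeq start lies past the end of the stretch shown, so these distances do not count from that end. CCAAT was in 5 of the 9 windows (33.8% of all 32851 windows), the FOXA word in 1 (3.17%), the GATA word in 1, at *Hnf4a* (9.99%), the TEAD word in 0 (12.6%) and the TATA box in 0 (12.4%). A match shows only that the letters are there, and no match only that they are not in this window.

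*Hnf4a*, a nuclear receptor of liver and intestine, was listed at 0.0328 FPKM in control lungs and 0.215 FPKM in mutants. Its listed interval on chromosome 2 (163492318 to 163572907) is shared with *R3hdml* and the antisense gene *Hnf4aos*, and the rows of both were listed at 0 in both genotypes. *Pax9*, a paired-box gene of the pharyngeal pouches and the oesophagus, lies on chromosome 12 (56695639 to 56711230) and had 0.0879 FPKM in control lungs and 0.193 FPKM in mutants. *Onecut1*, a cut homeobox gene of liver and pancreas, lies on chromosome 9 (74861921 to 74889647) and had 0.0280 and 0.0603 FPKM. None of these 3 genes reached 1 FPKM in either genotype. Their log2 differences on the scale with 0.1 FPKM added were 1.25 (*Hnf4a*), 0.64 (*Pax9*) and 0.33 (*Onecut1*), and with 1 FPKM added they were 0.23, 0.13 and 0.04.

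Among the 133 genes of 10 lists of regional regulators and products, those closest to each detected gene in the plane of both values were sought. Over these 2 values, *Hhex* was closest to *Isl1* (5.93 and 7.27 FPKM, distance 0.55 on the log2 scale) and *Cebpa* (distance 0.84). For *Nkx6-1*, *Klf5* (2.29 and 3.36 FPKM, distance 0.37) was among the closest. *Barx1* was closest to *Six4* (3.36 and 2.02 FPKM, distance 0.54) and *Elf3* (distance 0.56).

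The same 10 lists show what surrounded the 8 genes. Of 135 loci, 62 reached 1 FPKM in either genotype. By the 2-fold rule, 16 of these were higher (25.8%) and 9 lower (14.5%) in *Yap* mutant lungs. Over all detected loci the shares were 2.70% and 1.63%. The lists were chosen with earlier results of these data known, so these shares are not a test. Of the 16 higher loci, 12 were under 1 FPKM in control lungs and entered the count only through their *Yap* mutant value, as 2 of the 9 lower loci did through their control value. Relative to the lung epithelium list, a reference that raises every log2 difference alike, the counts became 27 higher and 2 lower.

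For the liver, where *Hhex*, *Hnf4a* and *Onecut1* act, 3 of 9 detected regulator loci were higher and 0 lower, with a median log2 difference of 0.62 against -0.01 over all detected loci. The higher ones were *Cebpa* (4.62 to 15.3 FPKM), *Foxa3* (0.348 to 2.76 FPKM) and *Lhx2* (0.194 to 1.49 FPKM), while *Sox4* and *Tbx3*, the most abundant, were within 2-fold. Of 7 detected hepatoblast products, 4 were higher and 0 lower: *Ttr* (0.492 to 13.5 FPKM), *Afp* (5.42 to 22.3 FPKM), *Trf* (4.92 to 19.2 FPKM) and *Apoa1* (1.27 to 3.65 FPKM). The median log2 difference was 1.45 over the 7 detected loci and 0.59 over all 16, with no filter on low values. The most abundant, *Dlk1*, had 154.0 and 281.4 FPKM and was within 2-fold. Albumin (*Alb*), the defining hepatocyte product, had 1.28 and 1.14 FPKM, and *Apoc3* was listed at 0 in both genotypes. The summed level of the hepatoblast list, most of it *Dlk1* in both genotypes, was 172.0 FPKM in control lungs and 349.0 FPKM in mutants. The part of liver cells in the values of *Hhex*, *Hnf4a* and *Onecut1* was not tested.

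For the pancreas, where *Pdx1* and *Nkx6-1* act, 1 of 5 detected regulator loci was higher, *Rfx6* (0.393 to 3.43 FPKM), and 0 were lower. *Ptf1a*, *Neurog3*, *Nkx2-2* and *Pax4* were listed at 0 in both genotypes, and *Sox9* and *Isl1*, the most abundant, were within 2-fold. None (0) of the 12 pancreas products, hormones and digestive enzymes among them, reached 1 FPKM. The highest of these, *Gcg* and *Cela1*, were at 0.567 and 0.403 FPKM in control lungs and at 0.575 and 0.570 FPKM in *Yap* mutant lungs.

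For the intestine, where *Cdx2* acts, 2 of 5 detected regulators were higher and 0 lower. *Atoh1*, which specifies secretory cells, had 0.160 FPKM in control lungs and 3.43 FPKM in mutants, and *Prdm1* had 0.464 and 1.18 FPKM. *Gata5* and *Klf5*, the most abundant of the list, were within 2-fold. Of 3 detected intestine products 2 were higher, and both were listed at 0 in control lungs. These were *Guca2a*, which encodes guanylin, at 4.18 FPKM and *Tff3*, which encodes a trefoil peptide of goblet cells, at 1.42 FPKM in *Yap* mutant lungs. The third, *Lgr5*, had 1.19 and 1.11 FPKM. *Vil1*, *Cdh17*, *Fabp1*, *Fabp2*, *Muc2* and *Lct* were under 0.5 FPKM in both genotypes and *Sis* was listed at 0.

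For the stomach and oesophagus, where *Barx1*, *Pdx1* and *Pax9* act, 3 of 11 detected regulator loci were higher and 2 were lower. The higher ones were *Nkx2-5* (0.526 to 5.41 FPKM), *Pitx1* (0.276 to 1.56 FPKM) and *Sfrp5*. The lower ones were *Sox2*, which marks both the oesophagus and the proximal airway (9.65 to 2.91 FPKM), and *Six2* (2.18 to 1.01 FPKM). *Sfrp2* and the shared row of *Hoxa5* and *Hoxa6* were the most abundant and were within 2-fold. *Nkx2-5* is also a heart gene, and the heart muscle list was higher in the same lungs, as given below. The part of heart tissue in the *Nkx2-5* value, or in that of any other gene of these lists, was not tested. Of 3 detected squamous and gastric products, *Pgc*, which encodes a pepsinogen, was higher (0.661 to 2.25 FPKM) and *Krt15* was lower (1.40 to 0.530 FPKM). *Krt14*, at 0.884 and 1.84 FPKM, did not reach 2-fold. The part of lung cells themselves in the *Pgc* value was not tested.

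For the pharyngeal pouches, thymus and thyroid, where *Pax9* and *Hhex* act, 0 of 6 detected loci were higher and 3 were lower, with a median log2 difference of -0.89. Over all 14 loci of the list, with no filter on low values, the median was -0.076. Among the lower ones were *Tbx1* (11.7 to 1.23 FPKM) and *Eya1* (2.66 to 1.21 FPKM), and *Hoxa3* was within 2-fold. *Pax1*, the paralog of *Pax9* in the pouches, was at 0.0513 FPKM in control lungs and listed at 0 in *Yap* mutant lungs. *Foxn1*, *Foxe1*, *Gcm2* and *Pth* were listed at 0 in both genotypes.

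**Figure D3:**
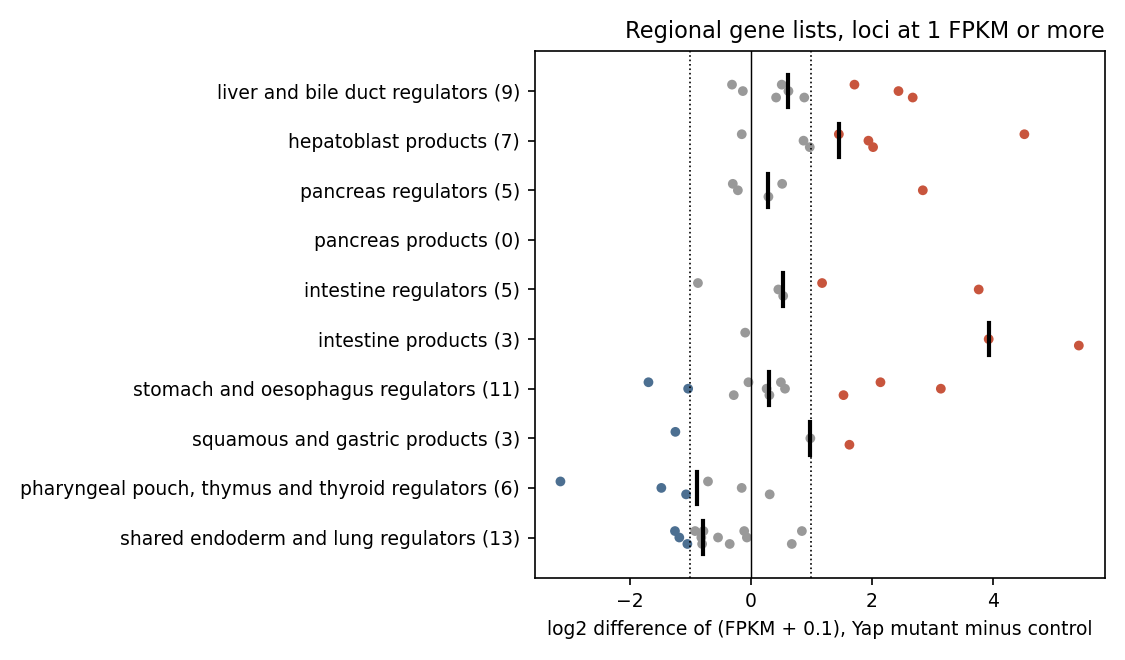
log2 difference of FPKM + 0.1, *Yap* mutant minus control, for each locus of the regional lists that reached 1 FPKM in either genotype (number in brackets); black bars are medians, dotted lines 2-fold, red and blue points loci past it. The liver, hepatoblast, pancreas regulator and intestine lists have red points and no blue ones. The farthest, at 5.42, is *Guca2a*, listed at 0 in control lungs. The stomach and squamous lists have points of both colours, and the pharyngeal and shared endoderm lists have blue points and no red ones.

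Other tissues differed between the same pooled samples. In the heart muscle list, 9 of 10 detected loci were higher by the 2-fold rule, *Nppa*, *Myh6*, *Tnnt2*, *Myl4*, *Myl7*, *Myh7*, *Tnni3*, *Ryr2* and *Actc1*, and the summed level was 124.0 FPKM in control lungs and 887.0 FPKM in mutants. 4 Y-linked genes (*Kdm5d*, *Uty*, *Ddx3y*, *Eif2s3y*) did not exceed 0.0163 FPKM in control lungs and reached at least 4.61 FPKM in mutants, values that follow the sex of the embryos. The part of heart tissue, of embryo sex or of other neighbouring tissue in the values of the 8 genes was not tested. *Yap1* itself had 76.1 FPKM in control lungs and 65.6 FPKM in mutants, a value that includes the mesenchyme and the whole locus.

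**Figure D4:**
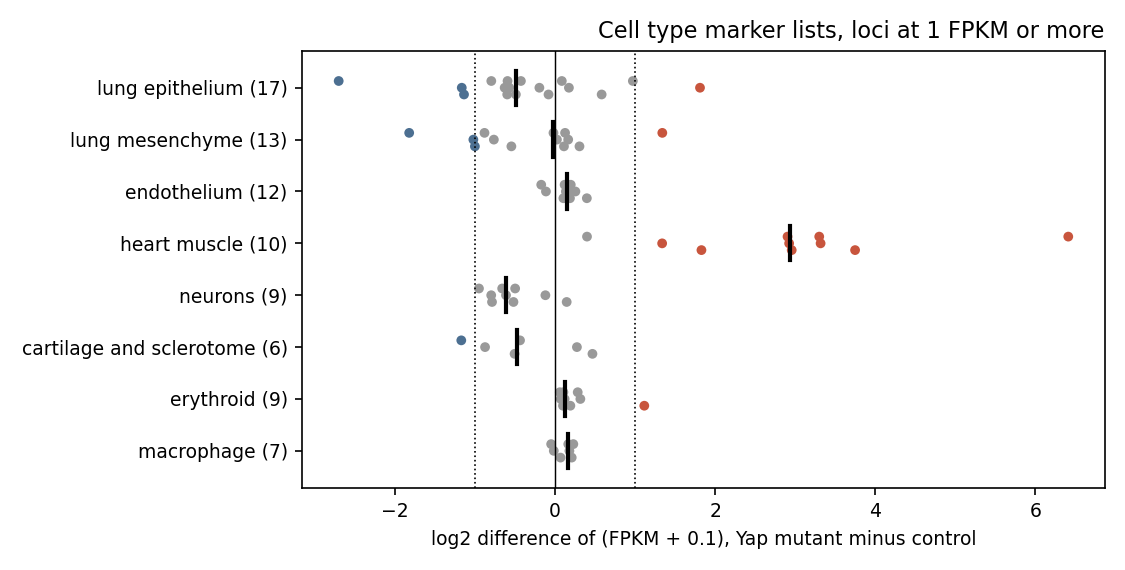
log2 difference of FPKM + 0.1, *Yap* mutant minus control, for each locus of the cell type marker lists that reached 1 FPKM in either genotype (number in brackets); black bars are medians, dotted lines 2-fold. The heart muscle list stands apart with a median of 2.94, while the endothelium, erythroid and macrophage medians lie between 0.12 and 0.16.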

How the data were processed

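RNA was isolated from whole lungs at 12.5 *dpc* (3 control and 3 *Yap* mutant libraries). Strand-specific libraries were run on HiSeq instruments and processed by the authors on the Maverix platform. The submitters' processing notes name TopHat, Cuffdiff and mm10, without versions. The authors deposited 2 tables with 1 FPKM value per genotype, read as FPKM from the Cuffdiff layout. They also hold the authors' log2 fold changes and p-values, which were not used. The second table lists 2395 loci selected by the authors and served as an alternative source of values. Of these loci, 25 differed from the table of all loci by over 1%.

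With 1 value per genotype, no test, error or depth could be given. That fixed the rule of size: log2((*Yap* mutant + 0.1)/(control + 0.1)), called at 1 or more in either direction with the larger value at least 1 FPKM. Of 21012 loci with a single symbol held by RefSeq, 98.7% overlapped that gene on GRCm38. Listed starts count from 0, so 1 was added. One interval can be shared by several rows, as 2043 are.

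The 8 genes and the lists were chosen with earlier results of these data known. Named genes are the 8, each list's loci past 2-fold, its 2 most abundant loci and the 2 nearest genes of each detected factor. *Alb*, *Apoc3*, *Sfrp1*, *Lgr5*, *Krt14*, *Nkx2-1*, the Y-linked genes and genes listed at 0 or under 0.5 FPKM were named after their values were seen, as were the paralogs and neighbours in the closing section. A few genes that fall under this rule are not reported. Symbols came from the tables, *Plut* and *Hnf4aos* from RefSeq synonyms. Alternatives were other detection minimums, folds, filters, pseudocounts, centrings and the second table. The work used Python 3.11.15, numpy 2.4.6, pandas 2.3.3 and matplotlib 3.10.9.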

Additional observations from a re-analysis of the deposited data

How the results depend on the processing

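The number of the 8 genes detected in either genotype was 3 at a minimum of 2 FPKM and with the second table, and 4 at a minimum of 0.5 FPKM. None of 11 alternatives called any of the 8 lower. The count of genes called higher was 0 except in 3 alternatives: it was 1 (*Pdx1*) at a detection minimum of 0.5 FPKM, 3 (*Pdx1*, *Cdx2* and *Hnf4a*) with no filter on low values, and 1 (*Hhex*, log2 difference 1.02) when centred on the lung epithelium list. The first 2 rest on values under 1 FPKM, and the last adds 0.49 to every log2 difference by construction, turning *Barx1* from -0.32 to 0.17 and the regional split from 16 higher and 9 lower to 27 and 2. It also turns the lung mesenchyme and cartilage medians from -0.02 and -0.47 to 0.47 and 0.02. A 1.5-fold rule gave 23 higher and 15 lower regional loci, a 3-fold rule 13 and 2, and a pseudocount of 1 FPKM 13 and 4. Requiring a mean of both genotypes of at least 1 FPKM gave 11 and 8. With no filter, the median log2 difference over all loci was 0 for the pancreas regulators and for the squamous and gastric products, 0.59 for the hepatoblast products and -0.076 for the pharyngeal list, against 1.45 and -0.89 over the detected loci of the last 2. The second table changed no call of the 8. No paired analysis was possible because each genotype has 1 pooled value, and for the same reason no library could be left out. Depth is unknown, so how firmly values under 1 FPKM differ from 0 could not be assessed.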

Other observations

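Among 13 regulators shared by lung and other endoderm, 0 were higher and 3 were lower, *Etv5* (86.9 to 36.3 FPKM), *Irx3* (23.5 to 10.3 FPKM) and *Irx2* (24.1 to 11.6 FPKM), with a median of -0.78. *Nkx2-1*, the lung regulator, had 61.9 and 35.9 FPKM and *Id2*, the most abundant, had 117.7 and 211.0 FPKM, both within 2-fold. In the list of lung epithelial genes, 1 of 17 detected loci was higher, *Elf5*, and 3 were lower, *Shh* (15.6 to 2.31 FPKM), *Cldn4* and *Esrp2*, while *Cldn6* and *Spint2*, the most abundant, were within 2-fold. In the lung mesenchyme list, *Fgf10* was higher and *Ptch1*, *Gli1* and *Foxf1* were lower among 13 loci, with *Col1a1* and *Col3a1* the most abundant. In the cartilage list, *Matn4* was lower among 6 loci. None (0) of the 7 macrophage loci passed the rule. The most abundant loci of the remaining lists were *Cdh5* and *Egfl7* (endothelium), *Stmn2* and *Dcx* (neurons), *Col2a1* beside *Matn4* (cartilage), *Hbb-y* and the shared row of *Hba-a1* and *Hba-a2* (erythroid) and *Lyve1* and *C1qb* (macrophage), all within 2-fold apart from *Matn4*.

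Of 9 paralogs of the 8 genes (*Hnf4g*, *Cdx1*, *Cdx4*, *Barx2*, *Onecut2*, *Onecut3*, *Pax1*, *Nkx6-2* and *Nkx6-3*), 1 reached 1 FPKM, *Nkx6-2*, with 1.25 FPKM in control lungs and 0.994 FPKM in mutants. *Barx2*, a homeobox gene related to *Barx1*, had 0.558 FPKM in control lungs and 0.186 FPKM in mutants. *Cdx1*, which acts beside *Cdx2* in the intestine, had 0.0678 and 0.123 FPKM, *Cdx4* was listed at 0 in both genotypes, and *Hnf4g* was listed at 0 in control and at 0.0389 FPKM in *Yap* mutant lungs.

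Loci near *Pdx1* and *Cdx2*, *Pax9* and *Hhex* were also read, 7 in all. In the ParaHox cluster, *Gsx1*, the third homeobox gene beside *Pdx1* and *Cdx2*, was listed at 0 in both genotypes. *Flt3*, near *Cdx2*, had 0.0201 and 0.0102 FPKM. On chromosome 12, *Nkx2-1* had 61.9 FPKM in control lungs and 35.9 FPKM in mutants, while *Nkx2-9* (0.0138 and 0.0312 FPKM), *Pax9* and *Slc25a21* (0.104 and 0.174 FPKM) were under 1 FPKM in both. Around *Hhex* on chromosome 19, *Kif11* had 41.5 and 36.9 FPKM and *Exoc6* had 4.24 and 4.48 FPKM.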
